A study of Mus musculus with 10 samples.

Results

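A group of 9 genes known from mitotic germ cells was followed in round spermatids, the haploid cells that form when meiosis ends. The genes are Cdh1, Pou5f1, Prss50, Kit, Zbtb16, Gfra1, Dmrt1, Sall4 and Stra8, 9 of 55401 genes in the count table. They were chosen by their place in spermatogonia and pluripotent cells and by their levels in these libraries, since the means of some were slightly higher at 42 °C. The difference between 42 °C and 33 °C therefore served in the choice, and for these 9 genes it is given as a description with no test. All mice were adult CD1 males, an outbred stock, and all were under isoflurane while the testes were held for 30 minutes against warm water. The water was at 42 °C for 5 heated mice and at 33 °C for 5 control mice. The animals were killed as soon as they had woken, and round spermatids were isolated from them. Each mouse gave 1 library of total RNA, depleted of ribosomal RNA and stranded. The spread between libraries therefore holds that between mice together with that of cell isolation and library preparation.

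The mouse testis is renewed from spermatogonia, which divide by mitosis at the base of the seminiferous tubule. Undifferentiated spermatogonia carry GFRA1, the receptor subunit that binds GDNF from Sertoli cells, and transcription factors such as PLZF (from Zbtb16) and SALL4. Retinoic acid moves them to the KIT-positive, differentiating state and then, through STRA8, into meiosis, so the RNA of these genes is best known from cells that come well before the spermatid.

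Library totals were 60623568 to 102086073 counts at 42 °C and 92311183 to 117723075 counts at 33 °C. The shallowest library, 42 °C replicate 2, had 16.2% of its counts on transposable elements, against 4.62% to 9.07% in the other libraries. Levels are CPM, the counts of a gene scaled to a fixed library size after TMM normalization. A log2 fold change above 0 means a higher level at 42 °C, and its standard error is written SE. The label of the cells was checked against markers. The summed CPM of 14 round spermatid markers, led by Tnp2 and Prm1, was 2730 to 6370 at 42 °C and 2730 to 4540 at 33 °C. Of these 14, 13 (92.9%) had a log2 fold change above 0, against 48.9% of all features tested below, and the median was 0.28. Spermatocyte markers, led by Syce1 and Ccna1, summed to 751 to 1050 CPM at 42 °C, against 967 to 1280 CPM at 33 °C. Of 12 spermatocyte markers, 5 had a log2 fold change above 0, and the median was -0.13. In both lists 0 markers passed the test given below, and the part of cell composition in the values of the 9 genes was not tested. The 7 lists of other testis cell types summed to far less, at most 27.6 CPM in a 42 °C library and 38 CPM in a 33 °C library. No marker on these lists was at 0 in all libraries. The libraries marked in the figures are 42 °C replicate 2 and 33 °C replicate 3. Of the 9 genes, 42 °C replicate 2 was highest for 2 and lowest for 3. In turn, 33 °C replicate 3 was highest for 3 and lowest for 1. A check for libraries standing apart, given at the end, marked 42 °C replicate 2 for Gfra1 and did not mark 33 °C replicate 3. The latter had the highest sums at 33 °C for Sertoli (23 CPM), Leydig (38 CPM) and peritubular (28.5 CPM) markers.

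Across the table, 26025 features passed a filter on low counts and entered the edgeR quasi-likelihood test. At an adjusted p under 0.05, 0.0884% of them were called higher at 42 °C and 0.00384% were called lower. All 5 libraries at 42 °C lay above all 5 at 33 °C for 1.32% of the features, and below them for 0.68%. Among the 8747 genes with a mean under 1 CPM, 2.5% had the 42 °C libraries above. The log2 fold change was above 0 for 48.9% of all tested features and for 59% of these low genes. Of the 9 genes, 7 passed the filter, each with at least 14 counts in every library, and 6 of the 7 had a log2 fold change above 0. In Cdh1 and Pou5f1, the 42 °C libraries lay above the 33 °C libraries without overlap. These counts rest on the contrast that served to choose the genes, and nothing is read from them.

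**Figure D1:**
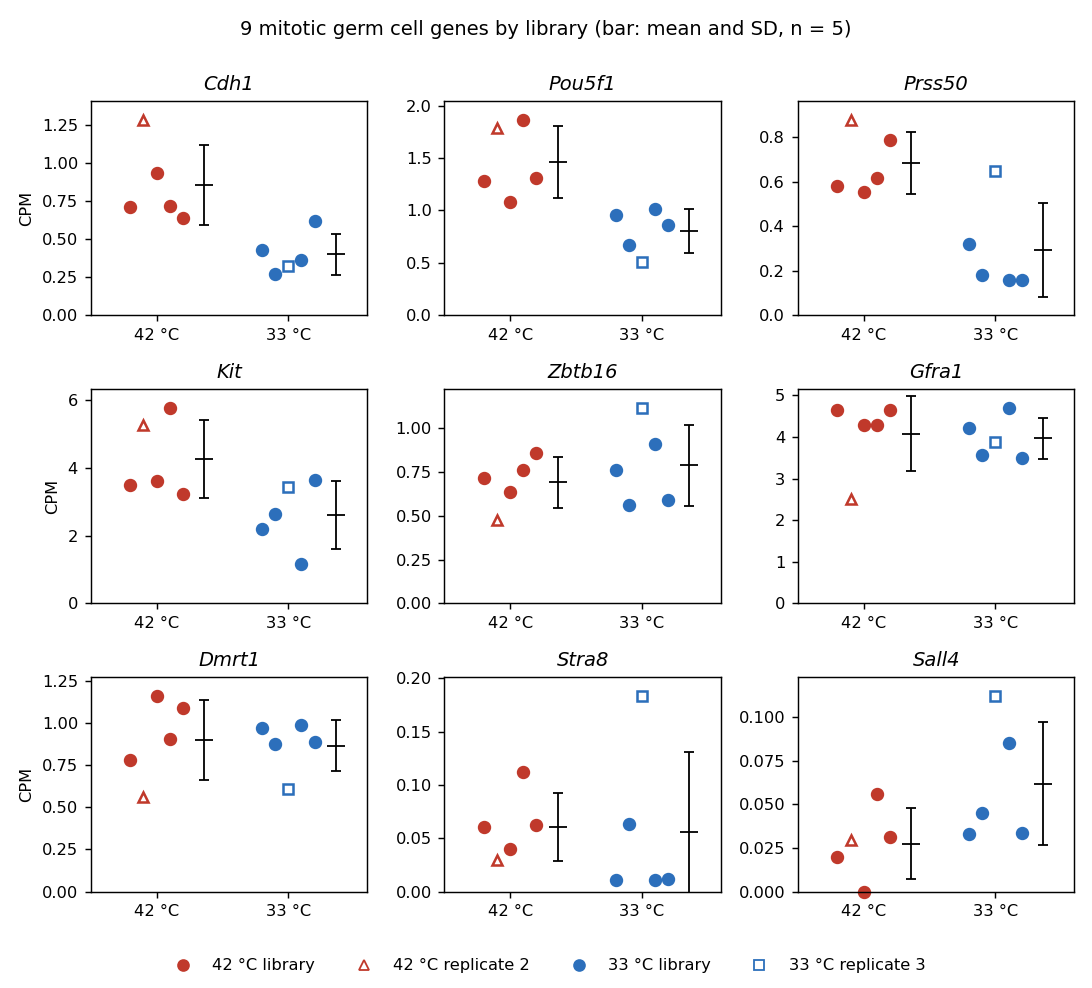
CPM (vertical axis, from 0, scaled per panel) of the 9 genes in each library, with 42 °C on the left of each panel and 33 °C on the right, and with the mean and SD (n = 5) as a bar that stops at 0 for Stra8. The open triangle is 42 °C replicate 2 and the open square is 33 °C replicate 3; Cdh1 and Pou5f1 show no overlap, and 33 °C replicate 3 has the highest value of all libraries for Zbtb16, Stra8 and Sall4.

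Pou5f1 encodes OCT4, the POU-domain transcription factor of pluripotent cells, which in the adult testis is known from undifferentiated spermatogonia (ENSMUSG00000024406, GRCm38 chromosome 17, 35506018 to 35510772, plus strand). The RefSeq promoter window of its first start site is shown because Pou5f1 is one of the genes whose groups were apart. It covers 250 bases before to 50 bases after the start, chr17:35505782-35506081 in GRCm38.p6, plus strand. Capitals mark a GC box (GGGCGG), whose first base is at -45 from the start, and a nuclear receptor core site (AGGTCA) at -33.
Pou5f1: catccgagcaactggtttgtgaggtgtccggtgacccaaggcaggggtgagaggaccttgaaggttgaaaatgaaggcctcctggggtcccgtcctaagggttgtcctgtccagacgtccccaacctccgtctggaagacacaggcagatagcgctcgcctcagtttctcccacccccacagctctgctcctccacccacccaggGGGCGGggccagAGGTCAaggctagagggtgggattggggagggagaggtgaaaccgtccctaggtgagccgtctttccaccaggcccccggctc
Across 32851 promoter windows of 27025 genes, GGGCGG on either strand is in 35.7% and AGGTCA on either strand in 16.3%.

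At 42 °C, Pou5f1 had 1.28, 1.79, 1.08, 1.86 and 1.31 CPM in replicates 1 to 5. The 33 °C libraries had 0.96, 0.67, 0.507, 1.01 and 0.857 CPM. The lowest library at 42 °C, replicate 3, lay just above the highest at 33 °C, replicate 4, so the groups met without crossing. Mean levels were 1.46 ± 0.344 CPM at 42 °C, against 0.801 ± 0.21 CPM at 33 °C (SD, n = 5 each), from 648 counts at 42 °C and 382 at 33 °C. The log2 fold change was 0.87 (SE 0.24), and it was 0.82 without 42 °C replicate 2 and 0.74 without 33 °C replicate 3. How reads that also match related copies elsewhere in the genome were counted is not given, so the level of Pou5f1 carries that uncertainty. In bulk RNA such as this, more cells of a type and more RNA per cell cannot be told apart.

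Cdh1 encodes E-cadherin, the calcium-dependent adhesion protein of epithelia, also carried on the surface of undifferentiated spermatogonia (ENSMUSG00000000303, chromosome 8, 106603351 to 106670246, plus strand). At 42 °C, Cdh1 had 0.713, 1.28, 0.932, 0.717 and 0.639 CPM in replicates 1 to 5. At 33 °C the values were 0.43, 0.272, 0.325, 0.363 and 0.62 CPM. Only a small gap parted replicate 5 at 42 °C from replicate 5 at 33 °C, and 42 °C replicate 2 was the highest of all. Means were 0.855 ± 0.259 CPM at 42 °C, against 0.402 ± 0.135 CPM at 33 °C (SD, n = 5 each), and the log2 fold change was 1.09 (SE 0.28). Without 42 °C replicate 2 the mean at 42 °C was 0.75 ± 0.126 CPM (SD, n = 4) and the log2 fold change was 0.93, and without 33 °C replicate 3 it was 1.02. Behind these values stood 376 counts at 42 °C and 190 at 33 °C. The summed CPM of epididymal and rete epithelial markers, led by Krt8 and Krt18, cells that also carry E-cadherin, was 7.37 to 8.59 at 42 °C and 8.04 to 9.65 at 33 °C. Most of that sum was Krt8, at 5.73 ± 0.794 CPM at 42 °C, against 7.23 ± 0.626 CPM at 33 °C (SD, n = 5 each). Of the 8 markers 4 were tested, and Krt18, Crisp1 and Defb19 had log2 fold changes above 0, with a median of 0.37 over the 4 and 0 called. The part of these cells in the Cdh1 values was not tested.

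Kit encodes the receptor tyrosine kinase for stem cell factor and marks differentiating spermatogonia (ENSMUSG00000005672, chromosome 5, 75574916 to 75656722, plus strand). Spermatids are also known to make a truncated KIT protein from a promoter inside the gene, and a count over the whole gene cannot separate that RNA from the full-length one. The GENCODE M21 annotation holds a transcript of this shape, Kit-208, of the type retained intron. It begins in intron 16 of the 21-exon transcript Kit-201, runs for 453 bases up to exon 17 and shares exons 17 to 21. The promoter of the whole gene and the entry of Kit-208 into exon 17 are shown because reads from either start enter the same count. The promoter window is chr5:75574737-75575036, plus strand, GRCm38.p6, and its capitals mark a GC box whose first base is at -98. The Kit-208 stretch is chr5:75649470-75649669, plus strand, GRCm38, with exon 17 (123 bases) in capitals and, before it, the 1 ATG that is in frame with exon 17 and has no stop codon between, which begins 36 bases before the exon.
Kit promoter: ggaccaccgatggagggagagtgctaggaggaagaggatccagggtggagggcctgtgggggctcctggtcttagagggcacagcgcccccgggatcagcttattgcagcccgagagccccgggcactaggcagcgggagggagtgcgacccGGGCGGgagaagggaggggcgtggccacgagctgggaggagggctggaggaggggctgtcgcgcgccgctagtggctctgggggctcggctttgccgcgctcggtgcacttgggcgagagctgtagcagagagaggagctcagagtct
Kit-208: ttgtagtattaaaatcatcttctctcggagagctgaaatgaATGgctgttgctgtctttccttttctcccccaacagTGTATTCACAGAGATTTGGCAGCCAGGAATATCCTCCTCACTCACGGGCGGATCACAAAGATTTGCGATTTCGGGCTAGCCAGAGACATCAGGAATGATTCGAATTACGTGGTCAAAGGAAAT

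At 42 °C, Kit had 3.5, 5.25, 3.62, 5.75 and 3.22 CPM in replicates 1 to 5. At 33 °C it had 2.2, 2.63, 3.42, 1.17 and 3.63 CPM. The groups overlapped: 3 of the 5 libraries at 33 °C lay below every library at 42 °C, and replicates 3 and 5 at 33 °C reached into the range of 42 °C. The 42 °C mean was 4.27 ± 1.15 CPM, against 2.61 ± 0.991 CPM at 33 °C (SD, n = 5 each), with a log2 fold change of 0.71 (SE 0.29). Leaving out a single library gave log2 fold changes of 0.52 to 0.9, with 0.66 without 42 °C replicate 2 and 0.82 without 33 °C replicate 3. At 1889 counts at 42 °C and 1258 at 33 °C, the SD was 26.8% of the mean at 42 °C and 38% at 33 °C, while counting error alone gives 5.14% at 42 °C and 6.3% at 33 °C. The spread between libraries in Kit was thus several times the counting error.

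Prss50 encodes a serine protease-like protein of the testis (ENSMUSG00000048752, chromosome 9, 110857967 to 110864629, plus strand). Its first RefSeq promoter window, chr9:110857714-110858013, plus strand, GRCm38.p6, is shown for comparison with those of Pou5f1 and Kit. It has no capitals, since none of the 4 motifs searched is in it.
Prss50: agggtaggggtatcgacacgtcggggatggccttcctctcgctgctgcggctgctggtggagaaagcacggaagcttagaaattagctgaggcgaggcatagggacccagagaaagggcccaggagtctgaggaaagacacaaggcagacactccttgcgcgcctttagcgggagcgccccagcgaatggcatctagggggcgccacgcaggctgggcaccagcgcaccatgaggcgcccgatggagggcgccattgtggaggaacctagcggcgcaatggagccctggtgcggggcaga
The 4 motifs were the GC box and nuclear receptor core site given above, a cAMP response core site (TGACG) and a heat shock element (GAANNTTC), each on both strands. TGACG is in 20.8% and GAANNTTC in 7.86% of the 32851 windows. GAANNTTC was in none of the 8 windows that RefSeq lists for Pou5f1, Prss50, Kit, Gfra1 and Stra8. The windows of Prss50 overlap almost fully, as do those of Kit, so the 8 are not separate stretches. No window was at hand for Cdh1, Zbtb16, Sall4 and Dmrt1, and nothing is read from the absence. GC content was 62.7% in the Pou5f1 window, 64% in the Prss50 window and 69% in the Kit window.

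At 42 °C, Prss50 had 0.582, 0.875, 0.555, 0.616 and 0.785 CPM in replicates 1 to 5. The 33 °C libraries had 0.32, 0.181, 0.649, 0.16 and 0.158 CPM. Of the 33 °C libraries, 4 lay below every 42 °C library, and 33 °C replicate 3 lay above 3 of the 42 °C libraries. Means were 0.683 ± 0.14 CPM at 42 °C, against 0.294 ± 0.21 CPM at 33 °C (SD, n = 5 each), with a log2 fold change of 1.21 (SE 0.39). The overlap came from that library alone. Without 33 °C replicate 3 the mean at 33 °C was 0.205 ± 0.0775 CPM (SD, n = 4) and the log2 fold change was 1.73. Leaving out the only control library that overlapped had to remove the overlap and raise the fold change, so nothing is read from this. Without 42 °C replicate 2 the log2 fold change was 1.15. Prss50 stands in a cluster of related protease genes, and Prss46 lies 1.4 kb upstream on the same strand. Prss46 averaged 110 ± 16.9 CPM at 42 °C, against 118 ± 32.7 CPM at 33 °C (SD, n = 5 each; log2 fold change -0.10, adjusted p = 0.813 with edgeR). Whether reads that run on from Prss46 were counted for Prss50 was not tested.

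The libraries that stood highest or lowest were not the same for these 4 genes. Cdh1 and Prss50 were highest in 42 °C replicate 2, while Pou5f1 and Kit were highest in 42 °C replicate 4. The lowest library was 33 °C replicate 2 for Cdh1, replicate 3 for Pou5f1, replicate 5 for Prss50 and replicate 4 for Kit.

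**Figure D2:**
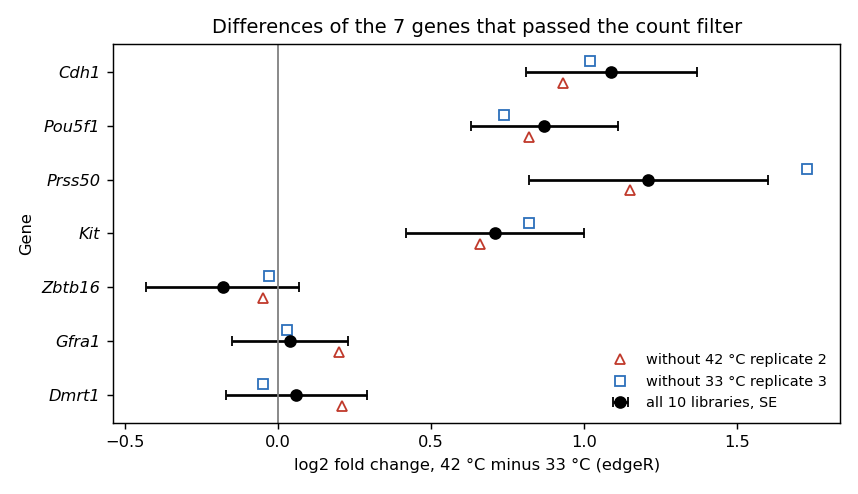
Log2 fold change (42 °C minus 33 °C) of the 7 genes that passed the count filter, with SE bars, and the values without 42 °C replicate 2 and without 33 °C replicate 3. Prss50 moves the farthest, to 1.73 without 33 °C replicate 3, and Zbtb16, Gfra1 and Dmrt1 stay close to 0.

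Gfra1, the GDNF receptor subunit and the defining surface protein of the most undifferentiated spermatogonia, had nearly equal means in the groups (ENSMUSG00000025089, chromosome 19, 58235604 to 58455909, minus strand). At 42 °C, Gfra1 had 4.66, 2.51, 4.3, 4.29 and 4.65 CPM in replicates 1 to 5. At 33 °C the values were 4.23, 3.56, 3.88, 4.69 and 3.49 CPM. The groups overlapped: 42 °C replicate 2 was the lowest of all 10 libraries, and the other 4 at 42 °C lay between 4.29 and 4.66 CPM, above all of the 33 °C libraries but replicate 4. Means were 4.08 ± 0.898 CPM at 42 °C, against 3.97 ± 0.499 CPM at 33 °C (SD, n = 5 each), and the log2 fold change was 0.04 (SE 0.19). Without 42 °C replicate 2 the 42 °C mean was 4.47 ± 0.206 CPM (SD, n = 4) and the log2 fold change was 0.2. The antisense gene Gm16277 overlaps Gfra1 in 416 exon bases. It had 5.39 ± 1.12 CPM at 42 °C, against 4.06 ± 1.72 CPM at 33 °C (SD, n = 5 each; log2 fold change 0.41, SE 0.25, adjusted p = 0.498 with edgeR). Since the strand setting of the counting is not given, reads of the pair may not have been separated.

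Zbtb16 encodes PLZF, a zinc finger repressor needed for the upkeep of spermatogonial stem cells (ENSMUSG00000066687, chromosome 9, 48654297 to 48836222, minus strand). Its level was 0.713, 0.474, 0.634, 0.762 and 0.858 CPM in replicates 1 to 5 at 42 °C. At 33 °C the level was 0.761, 0.561, 1.11, 0.907 and 0.586 CPM. The 33 °C libraries spanned a range that held most of those at 42 °C, with 33 °C replicate 3 highest and 42 °C replicate 2 lowest. Zbtb16 averaged 0.688 ± 0.145 CPM at 42 °C, against 0.784 ± 0.228 CPM at 33 °C (SD, n = 5 each), a log2 fold change of -0.18 (SE 0.25). It was -0.05 without 42 °C replicate 2 and -0.03 without 33 °C replicate 3.

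Sall4 encodes a zinc finger factor shared by pluripotent cells and spermatogonia (ENSMUSG00000027547, chromosome 2, 168748332 to 168767943, minus strand), and it was too low to be tested. At 42 °C it had 2, 2, 0, 5 and 3 counts in replicates 1 to 5, 12 in all, with a 95% Poisson interval of 6.2 to 21. At 33 °C it had 3, 5, 11, 8 and 3 counts, 30 in all, with an interval of 20.2 to 42.8. These intervals cover counting error only, and the count of 0 in 42 °C replicate 3 allows up to 0.0297 CPM (3 counts). Mean levels were 0.0274 ± 0.0203 CPM at 42 °C, against 0.0618 ± 0.0351 CPM at 33 °C (SD, n = 5 each). Of the 30 counts at 33 °C, 11 were in replicate 3, and the other 4 libraries averaged 0.0494 ± 0.0246 CPM.

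Dmrt1 encodes a DM-domain transcription factor that holds spermatogonia in mitosis and keeps STRA8 off (ENSMUSG00000024837, chromosome 19, 25505618 to 25604329, plus strand). In replicates 1 to 5 at 42 °C it had 0.783, 0.563, 1.16, 0.907 and 1.09 CPM. The 33 °C libraries had 0.971, 0.878, 0.609, 0.992 and 0.891 CPM. The groups overlapped almost fully, with 42 °C replicate 2 and 33 °C replicate 3 at the bottom of each. The mean was 0.9 ± 0.24 CPM at 42 °C, against 0.868 ± 0.153 CPM at 33 °C (SD, n = 5 each), and the log2 fold change was 0.06 (SE 0.23). The sign of this small value depended on single libraries: it was 0.21 without 42 °C replicate 2 and -0.05 without 33 °C replicate 3.

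Stra8 is induced by retinoic acid as germ cells enter meiosis (ENSMUSG00000029848, chromosome 6, 34920163 to 34939344, plus strand), and like Sall4 it did not pass the filter. At 42 °C it had 6, 2, 4, 10 and 6 counts in replicates 1 to 5. At 33 °C the values were 1, 7, 18, 1 and 1 counts. Each group summed to 28 counts (95% Poisson interval 18.6 to 40.5), but 18 of those at 33 °C came from replicate 3 alone. Means were 0.0609 ± 0.0318 CPM at 42 °C, against 0.0558 ± 0.0744 CPM at 33 °C (SD, n = 5 each). Without 33 °C replicate 3 the 33 °C mean was 0.0241 ± 0.0262 CPM (SD, n = 4), from 10 counts, so the near-equal sums of the groups rested on that library.

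To compare the genes with each other, levels were divided by exon length and given as TPM, a share of the length-scaled counts of all genes. The length was the union of the exons of all annotated transcripts of a gene. For Kit it was 8911 bases, with its retained intron transcripts included, while Kit-208 alone has 3175 bases. The order of the genes depends on this choice, and no other length was tried. This scale leaves out transposable elements and uses no TMM factor, and 42 °C replicate 2 stands higher on it, relative to the other libraries, than in CPM. Gfra1 had the highest level, at 2.37 ± 0.321 TPM at 42 °C and 2.29 ± 0.458 TPM at 33 °C (SD, n = 5 each). Pou5f1 followed with 2.15 ± 0.737 TPM at 42 °C and 1.12 ± 0.324 TPM at 33 °C. Gfra1 was above Pou5f1 in 3 of 5 libraries at 42 °C and in 5 of 5 at 33 °C.

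Next in this TPM order came Kit, Prss50 and Dmrt1, whose places changed from library to library. Kit had 1.58 ± 0.571 TPM at 42 °C and 0.908 ± 0.337 TPM at 33 °C (SD, n = 5 each). Prss50 had 1.56 ± 0.553 TPM at 42 °C and 0.655 ± 0.517 TPM at 33 °C. Kit was above Prss50 in 2 of 5 libraries at 42 °C and in 4 of 5 at 33 °C, and Prss50 was above Dmrt1 in 4 of 5 at 42 °C and in 1 of 5 at 33 °C. Dmrt1 had 1.11 ± 0.223 TPM at 42 °C and 1.05 ± 0.199 TPM at 33 °C. Cdh1 had 0.627 ± 0.293 TPM at 42 °C and 0.273 ± 0.0778 TPM at 33 °C, and was above Zbtb16 in 4 of 5 libraries at 42 °C and in 1 of 5 at 33 °C. Zbtb16 had 0.417 ± 0.0669 TPM at 42 °C and 0.475 ± 0.177 TPM at 33 °C, above Stra8 in every library.

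Stra8 and Sall4 closed the order. Stra8 had 0.107 ± 0.0501 TPM at 42 °C and 0.101 ± 0.142 TPM at 33 °C, and Sall4 had 0.0163 ± 0.0116 TPM at 42 °C and 0.036 ± 0.0229 TPM at 33 °C. By the mean over all 10 libraries, and against 21897 protein-coding genes with a median of 1.77 TPM, Gfra1 stood at percentile 52.5, Pou5f1 at 49.3 and Kit at 46.7. Prss50 stood at 45.5, Dmrt1 at 45.2 and both Cdh1 and Zbtb16 at 37.4, while Stra8 stood at 25.3 and Sall4 at 16.3. By that pooled mean all but Gfra1 were below the median, though the Pou5f1 mean was above 1.77 TPM at 42 °C and below it at 33 °C.

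**Figure D3:**
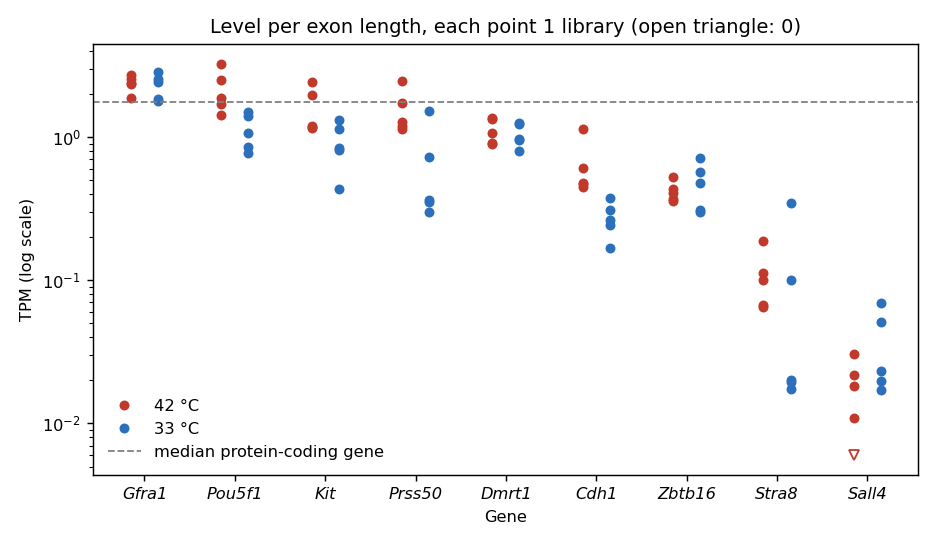
Level per exon length in TPM (log axis) of the 9 genes in each library, 42 °C before 33 °C, with the median protein-coding gene (1.77 TPM) as a dashed line and an open inverted triangle for the library with 0 counts of Sall4. Gfra1 lies at or above the dashed line, from 1.78 to 2.83 TPM. Pou5f1 lies on both sides of the line at 42 °C and below it at 33 °C, and all values of Sall4 lie far below it.

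Genes related to the 9 were read from the edgeR fit over all features. In all, 154 related genes were listed in 6 lists, 153 were in the table and 126 were tested. Of these, 1 was called higher at 42 °C with edgeR and 0 were called lower, so that 0.794% were called higher, against 0.0884% of all features. A single gene, Prdm14, makes up that share, and it passed the count filter only through its 42 °C libraries, so nothing is read from the share. Means are given with the SD over 5 libraries per group. At an unadjusted p under 0.05, 14 of the 126 (11.1%) were higher and 8 (6.35%) were lower, against 8.56% and 2.94% of all features. The log2 fold change was above 0 for 46.8% of the 126 genes, against 48.9% of all tested features, and the median was -0.05, against -0.01. The 42 °C libraries lay above all of the 33 °C libraries for 4 of the 126 (3.17%, against 1.32% of all features) and below for 0. Prdm14 is among the 14 and among the 4, so nothing is read from these shares either.

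Among genes of undifferentiated spermatogonia, 23 of 32 were tested, 0 were called, and the median log2 fold change was -0.07. The lowest p-values belonged to Taf4b, a TFIID subunit of germ cells, and Glis3, a zinc finger factor. Taf4b had 4.48 ± 1.53 CPM at 42 °C, against 2.76 ± 0.518 CPM at 33 °C (log2 fold change 0.7, SE 0.23, adjusted p = 0.37 with edgeR). Glis3 had 1.04 ± 0.203 CPM at 42 °C, against 1.72 ± 0.488 CPM at 33 °C (log2 fold change -0.73, SE 0.23, adjusted p = 0.369 with edgeR). This pair pointed in opposite directions, and neither passed the test. The summed CPM of the list was 69.5 to 82.4 at 42 °C and 57.9 to 78.9 at 33 °C.

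Of genes of differentiating spermatogonia and meiotic entry, 22 of 24 were tested, 0 were called, and the median log2 fold change was 0.07. Rxra, a retinoid X receptor, had 35.2 ± 12.6 CPM at 42 °C, against 18.3 ± 8.9 CPM at 33 °C (log2 fold change 0.95, SE 0.34, adjusted p = 0.386 with edgeR). Mki67, the proliferation antigen Ki-67, had 28.5 ± 3.9 CPM at 42 °C, against 36.5 ± 4.72 CPM at 33 °C (log2 fold change -0.36, SE 0.13, adjusted p = 0.386 with edgeR).

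The pluripotency network held the 1 call. Of its 30 genes, 16 were tested, 10 of them with a log2 fold change above 0, and the median was 0.08. Prdm14, a PRDM-family regulator of primordial germ cells and pluripotency, rose to 0.297 ± 0.135 CPM at 42 °C, against 0.0346 ± 0.0132 CPM at 33 °C (SD, n = 5 each). It had 127 counts at 42 °C and 17 at 33 °C, the groups did not overlap, and the log2 fold change was 3.02 (SE 0.41, adjusted p = 0.0153 with edgeR). Its libraries had 0.168 to 0.519 CPM at 42 °C and 0.0213 to 0.0507 CPM at 33 °C. Prdm14 thus passed the count filter only through the 42 °C group, where it was high, and nothing is read from its call. The call was lost without 33 °C replicate 1 (adjusted p = 0.059) and without 33 °C replicate 4 (adjusted p = 0.0544). The adjusted p ran from 9.15e-06 with DESeq2 to 0.207 with a replicate block. Tfcp2l1, a factor of naive pluripotent cells, had 13.6 ± 5.25 CPM at 42 °C, against 6.44 ± 2.71 CPM at 33 °C (log2 fold change 1.08, SE 0.33, adjusted p = 0.356 with edgeR). Gdf3 was at 0 counts in every library.

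Among signalling partners, which include those of KIT, GFRA1 and retinoic acid, 23 of 25 were tested, 0 were called and the median log2 fold change was -0.09. Gdnf, the ligand that GFRA1 binds, had 0.834 ± 0.247 CPM at 42 °C, against 0.517 ± 0.187 CPM at 33 °C (log2 fold change 0.69, SE 0.3, adjusted p = 0.43 with edgeR). Socs1, a suppressor of cytokine signalling that binds KIT, had 3.35 ± 1.15 CPM at 42 °C, against 1.69 ± 0.373 CPM at 33 °C, without overlap. Its log2 fold change was 0.99 (SE 0.25), with an adjusted p of 0.263 with edgeR and of 0.0171 with DESeq2.

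Genes of the cadherin junction gave 15 tested of 16, 0 called and a median log2 fold change of 0.01. The list holds catenins, which are partners of E-cadherin, and also nectins and other cadherins (Cdh2, Cdh3, Cdh5 and Cdh11). These cadherins are not in the list of paralogs below. Ctnna2, an alpha-catenin, had 12.8 ± 1.18 CPM at 42 °C, against 10.1 ± 1.23 CPM at 33 °C, without overlap (log2 fold change 0.34, SE 0.13, adjusted p = 0.386 with edgeR). Jup, plakoglobin, had 52.4 ± 20 CPM at 42 °C, against 29.3 ± 12.8 CPM at 33 °C (log2 fold change 0.84, SE 0.31, adjusted p = 0.386 with edgeR). The remaining gene of the 4 without overlap was Ctnnb1, beta-catenin, named after its values were seen. It had 20.1 ± 0.933 CPM at 42 °C, against 17.6 ± 1.56 CPM at 33 °C (log2 fold change 0.19, SE 0.11, adjusted p = 0.479 with edgeR).

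Of 32 paralogs of the 9 genes, 31 were tested, 0 were called, 10 had a log2 fold change above 0, and the median was -0.12. Dmrta1, a DM-domain gene, had 0.215 ± 0.109 CPM at 42 °C, against 0.106 ± 0.0397 CPM at 33 °C (log2 fold change 1.01, SE 0.4, adjusted p = 0.399 with edgeR). It had 99 counts at 42 °C and 52 at 33 °C, where not all libraries reached the count filter. It passed the filter through the 42 °C group, where it was higher, so nothing is read from its difference. Prss45, a protease gene 16.7 kb upstream of Prss50, had 56.7 ± 13.1 CPM at 42 °C, against 80.5 ± 10.5 CPM at 33 °C (log2 fold change -0.5, SE 0.16, adjusted p = 0.369 with edgeR).

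**Figure D4:**
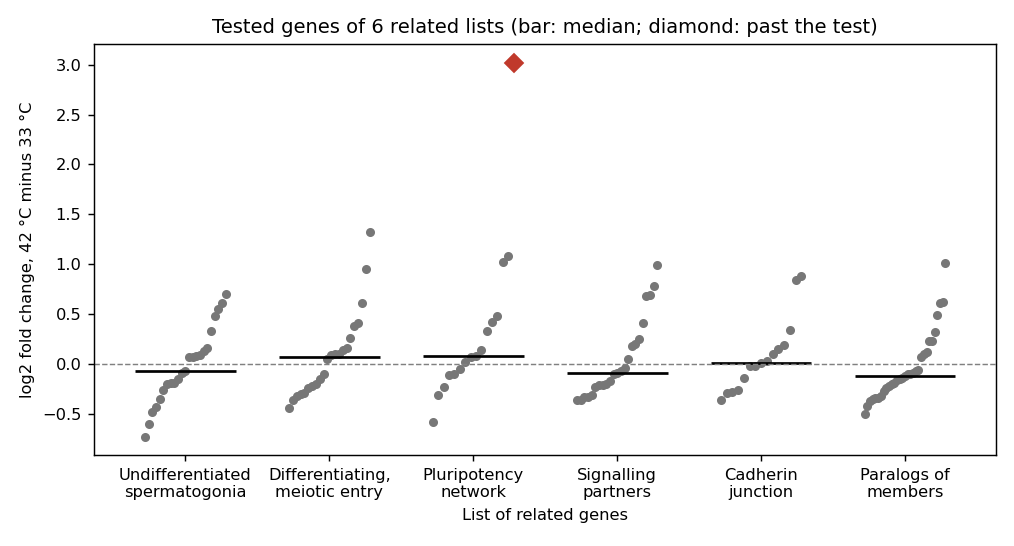
Log2 fold change (42 °C minus 33 °C) of each tested gene in the 6 lists of related genes, with the list's median as a bar and a diamond for a gene past the edgeR test. The medians lie between -0.12 and 0.08, and Prdm14 in the pluripotency list is the single diamond, at 3.02.

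Levels of the neighbouring genes were as follows. Upstream of Cdh1 on the same strand, at 8.5 kb, the lincRNA gene 1110028F18Rik had 0.412 ± 0.0617 CPM at 42 °C, against 0.383 ± 0.0539 CPM at 33 °C. Cchcr1, 6.3 kb downstream of Pou5f1 on the same strand, had 515 ± 64.5 CPM at 42 °C, against 569 ± 38.3 CPM at 33 °C. Gm19553, antisense to Pou5f1 and sharing 317 exon bases with it, had 0 counts in every library. Tango6, 12.8 kb downstream of Cdh1, had 1.94 CPM at 42 °C, against 2.24 CPM at 33 °C. For the low genes, Atp9a, 5.9 kb downstream of Sall4 on the same strand, had 66.3 CPM at 42 °C, against 70.7 CPM at 33 °C. Dmrt3, 6 kb downstream of Dmrt1, had 0.555 CPM at 42 °C, against 0.596 CPM at 33 °C, and Wdr91, 9.3 kb from Stra8 on the opposite strand, had 0.535 CPM at 42 °C, against 0.539 CPM at 33 °C.

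Genes with the most similar pattern over the 10 libraries were sought for the 3 genes with a mean of at least 1 CPM, among 16201 genes, as a description with no test. For Pou5f1 the closest were 4933413J09Rik (Pearson r = 0.934, Spearman rho = 0.927) and Gm12378 (r = 0.929, rho = 0.952), and 7 genes had an r above 0.9. For Kit, Gm8110 (r = 0.986, rho = 0.952) and Gm44581 (r = 0.984, rho = 0.842) led 414 genes with an r above 0.9. For Gfra1, Grip1os2 (r = 0.948, rho = 0.867) and Gm7049 (r = 0.947, rho = 0.927) led 5 such genes. More genes thus had an r above 0.9 with Kit than with Pou5f1 or Gfra1. Such a count also depends on how far the spread of a gene exceeds its counting error. It therefore does not show how common a pattern is. All points share their libraries, their depth and the group difference.

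Markers of the other cells of the testis were set beside these values. The sum was 12.1 to 25.2 CPM at 42 °C, against 11.7 to 23 CPM at 33 °C for Sertoli cells, led by Inha and Clu. Of 12 tested Sertoli markers, 9 had a log2 fold change above 0, with a median of 0.31 over the 12. For Leydig cells, led by Fdx1 and Cyp17a1, the sum was 16.6 to 24.5 CPM at 42 °C, against 19.8 to 38 CPM at 33 °C. Most of it was Fdx1, at 17.1 ± 3.08 CPM at 42 °C, against 18.7 ± 2.03 CPM at 33 °C (SD, n = 5 each). Of 9 tested Leydig markers, 1 had a log2 fold change above 0, with a median of -0.69 over the 9. Peritubular and stromal markers, led by Col3a1 and Tagln, summed to 15.9 to 22.8 CPM at 42 °C, against 14.1 to 28.5 CPM at 33 °C. These ranges overlapped between the groups. So did those of macrophages and leukocytes, led by Adgre1 and Csf1r, at 8.29 to 11.5 CPM at 42 °C, against 8.9 to 12.7 CPM at 33 °C. Endothelial markers, led by Vwf and Kdr, summed to 19.8 to 27.6 CPM at 42 °C, against 13.2 to 24.8 CPM at 33 °C, and erythroid markers to 0.221 to 0.392 CPM at 42 °C, against 0.0747 to 0.406 CPM at 33 °C. In each of these lists 0 markers were called in either direction with edgeR. The highest values of Zbtb16, Sall4 and Stra8 came from 33 °C replicate 3, which was also highest at 33 °C for the Sertoli, Leydig, peritubular and erythroid sums. It was highest at 33 °C as well for the undifferentiated spermatogonia list (78.9 CPM) and the round spermatid markers (4540 CPM). The part of any of these cells in the values was not tested.

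**Figure D5:**
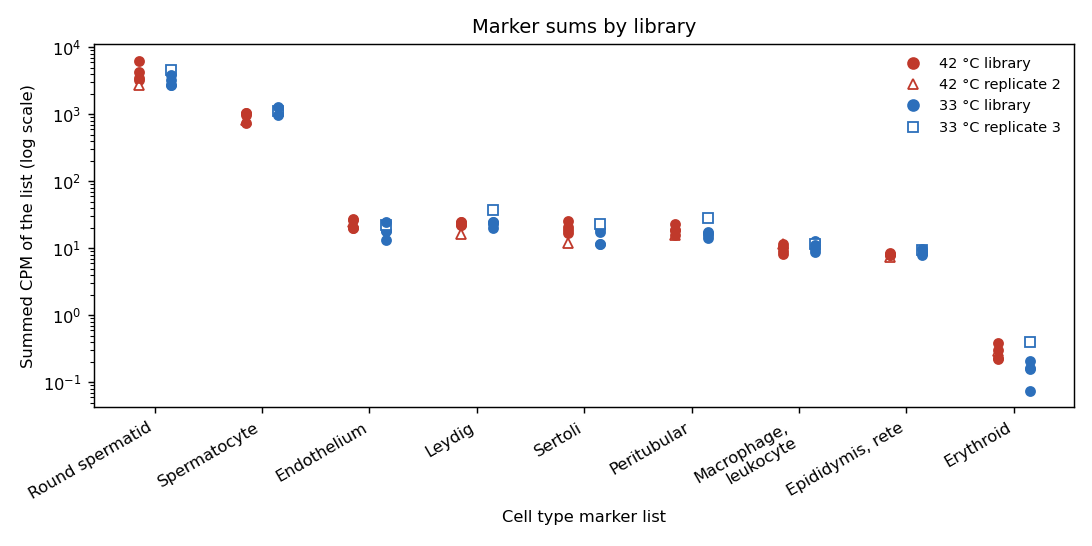
Summed CPM (log axis) of the marker genes of each cell type in each library, 42 °C before 33 °C, with 42 °C replicate 2 as an open triangle and 33 °C replicate 3 as an open square. Round spermatid markers sum to 2730 or more in every library, and the somatic lists stay at 38 CPM or less.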

How the data were processed

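Raw counts of reads per gene (55401 genes) and per transposable element subfamily (1146) were deposited by the authors for 10 libraries. Per the submitters' processing notes, DRAGEN, cutadapt and Trim Galore were used, and the builds are GRCm38 and mm10. How reads were counted, on which strand and with which handling of multi-mapping reads, is not given in the sources used here. All 10 count columns were used (0 columns of other samples).

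Counts were tested in R 4.3.3 with edgeR 4.0.16 (quasi-likelihood test, group alone), with TMM scaling over all features and filterByExpr (minimum count 10, minimum total 15, smallest group 5). The p-values were adjusted by Benjamini-Hochberg over the 26025 features tested and called under 0.05. CPM was computed from the deposited counts on TMM-scaled library sizes. TPM used the length of the union of each gene's exons in GENCODE M21, which gave the same position for 99.4% of 55141 shared genes. Promoter windows are from RefSeq (GRCm38.p6). The fit was tested on simulated data. Alternatives were DESeq2 1.42.0, limma 3.58.1 (voom with quality weights), other scalings, no filter, a replicate block and each library left out.

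The members and lists were chosen with earlier results of these data known. Genes named were the 9 members, the called genes and the 2 of smallest p in each related list, the 2 most similar genes (log2(CPM + 0.5), mean of at least 1 CPM), the 2 most abundant markers per cell type and the most abundant neighbour within 20 kb. Within groups, every pair of libraries differed by more than sampling noise (chi-square over degrees of freedom at least 10.4).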

Additional observations from a re-analysis of the deposited data

Results flagged for a closer look

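The Gfra1 level of 2.51 CPM in 42 °C replicate 2 stood far below the other 4 libraries at 42 °C, which lay between 4.29 and 4.66 CPM. Its gap to the nearest of them, as a share of the range of the group, was above the critical value of 0.71. Of 18 groups examined (9 genes in 2 groups), it was the only library past that value, and chance alone marks about 1 group in 20. The same library was the shallowest, with 60623568 counts, and had 16.2% of its counts on transposable elements; it was also lowest for Zbtb16 and Dmrt1 and highest for Cdh1 and Prss50. The part of depth or of the transposable element share in these values was not tested.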

How the results depend on the processing

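With edgeR, 23 genes were called higher at 42 °C and 1 lower, and the counts given here leave out transposable element subfamilies. These counts became 73 and 3 with no filter on low counts, 256 and 31 with DESeq2, and 124 and 29 with limma voom and quality weights. Leaving out each library in turn gave 10 to 21 higher and 0 to 2 lower. The count of higher calls fell to 10 without 33 °C replicate 4, to 12 without 33 °C replicate 1, to 14 without 42 °C replicate 2 or 5 and to 15 without 42 °C replicate 1 or 4. The cause was not tested. Of the related genes, 1 was called higher, 2 with DESeq2 (Prdm14 and Socs1), and 0 to 1 when each library was left out. Same-numbered libraries showed no shared deviation from their group means, with correlations from -0.56 to -0.1. These values cannot show whether same-numbered mice were handled together, and the labels do not say. A replicate block left 4 higher and 0 lower calls over the genes of the table and 0 higher among related genes. Over left-out libraries the log2 fold change stayed above 0 for Cdh1 (0.93 to 1.34) and Pou5f1 (0.74 to 0.96). The same held for Prss50 (1.05 to 1.73) and Kit (0.52 to 0.9). The value stayed below 0 for Zbtb16 (-0.27 to -0.03) and crossed 0 for Gfra1 (-0.01 to 0.2) and Dmrt1 (-0.05 to 0.21). This contrast served to choose the genes, so these ranges are a description and nothing is read from their signs. The 2 values that moved by more than the SE of the fit were those of Pou5f1 with limma voom (0.60) and of Prss50 without 33 °C replicate 3 (1.73). Without the filter, the log2 fold change was -1.12 (SE 0.64) for Sall4 and 0.16 (SE 0.69) for Stra8. At their 12 to 30 counts per group, counting error alone was 64.5% of a library's mean at 42 °C and 40.8% at 33 °C for Sall4, and 42.3% in each group for Stra8.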
